A study of Mus musculus with 31 samples.

Results

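The genes described here code for 10 products of pancreatic acinar cells, found in the array files by their gene names: Prss2, Cpa1, Amy2a5, Rnase1, Cpb1, Ctrb1, Pnlip, Cel, Cela2a and Clps. They were selected on the spread of their signals over the same 31 arrays, so the levels below are a description and carry no test, and only the comparisons between treatments, days and sexes were tested. The array holds 13 probes for them, of which 10 passed the filter on dim signals, so 9 of the 10 genes stood among the 19844 genes tested and Pnlip did not. The samples were distal colon RNA of BALB/c mice, young at the start, in a colitis-associated model of colorectal cancer (CRC). All mice, the controls included, were given a single injection of azoxymethane (AOM), a carcinogen for the colon, and then dextran sodium sulphate (DSS), which injures the mucosa, in the drinking water. The CRC + E171 mice received the food additive E171 (titanium dioxide) by gavage at 5 mg/kg bw per day, and the CRC mice received water by gavage. Tissue was taken after 2, 7, 14 and 21 days of exposure, with 4 arrays in each of the 8 groups (2 males and 2 females), apart from CRC at 21 days with 3 arrays (1 male and 2 females). There were no mice without AOM and DSS among the groups compared.

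Acinar cells of the exocrine pancreas make digestive enzymes in bulk, store them in zymogen granules and release them into the duct that opens into the duodenum. Proteases leave the cell as inactive precursors, and trypsin, once active in the gut, activates the others. The acinar programme is driven by a complex of PTF1A and RBPJL with an E-box protein, which binds an E-box beside a TTCCCA-type site, together with NR5A2 and BHLHA15 (MIST1). These genes are textbook markers of the acinar cell, and the colon is not known as a site of bulk production of them.

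Probes of 3 of the genes are shown as examples. Trypsins and amylases have close relatives whose transcripts a probe may also bind, which was not tested. All 3 are 60 bases long and have at least 1 reading frame without a stop codon, and their positions are those of the array annotation in build mm9.
Prss2 (A_51_P418901, chr6:41473937-41473996, plus strand): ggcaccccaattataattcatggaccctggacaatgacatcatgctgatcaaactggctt
Amy2a5 (A_55_P2139402, chr3:113091400-113091459, minus strand): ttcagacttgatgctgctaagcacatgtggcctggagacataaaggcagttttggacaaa
Cel (A_51_P242205, chr2:28411609-28411668, minus strand): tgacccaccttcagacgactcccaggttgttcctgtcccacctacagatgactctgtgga
The Amy2a5 probe shown is also listed for transcripts of Amy1, the salivary and liver type of amylase. The other Amy2a5 probe (A_55_P1996314, chr3:113084781-113084840) is listed for an Amy2a5 transcript and for a transcript whose gene was not matched. Both probes had the same 5 arrays on top, but their levels differed. The probe shown was at 1.85 on CRC 2 days male 2 and -4.12 on CRC 2 days female 2. The other was at 5.20 and -0.04. Cela2a has 1 probe for its RefSeq transcript (A_66_P129946, chr4:141370922-141373790, across a splice junction) and another (A_55_P2722025, chr4:141380935-141380994) listed only for an Ensembl transcript. The latter was well above background on 2 of 31 arrays and was removed by the filter. Other probes lie at chr6:30595240-30595299 (Cpa1), chr14:51764724-51764783 (Rnase1), chr3:20149467-20149526 (Cpb1), chr8:114210454-114210513 (Ctrb1) and chr17:28695162-28695221 (Clps). Of the 2 Pnlip probes, the one at chr19:58748342-58748401 is listed for no RefSeq or Ensembl transcript, and the other is listed for the RefSeq transcript.

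Because the genes moved together over the arrays, the 250 bases before their RefSeq start sites were searched for 4 motifs on both strands. RefSeq promoters of build GRCm38.p6 were at hand for 9 of the 10 genes, and none was for Clps. The RBPJ-type site TTCCCA lay in 7 of these 9 windows and in 21.6% of all 32851 RefSeq promoters. The E-box CANNTG lay in 7 of 9, against 66.2% of all promoters. TATAAA was present in 3 of 9 (12.4% of all) and the NR5A2 site AAGGTCA in 1 of 9 (4.08% of all). One stretch of bases may count for more than 1 motif, and a match is a description of the letters and no evidence of binding. Windows that hold the RBPJ-type site and a further motif are shown for Prss2, Cel and Pnlip. Capitals mark RBPJ-type, NR5A2 and TATA matches on either strand, and E-boxes are left in lower case.
Prss2 (chr6:41521526-41521775, plus strand): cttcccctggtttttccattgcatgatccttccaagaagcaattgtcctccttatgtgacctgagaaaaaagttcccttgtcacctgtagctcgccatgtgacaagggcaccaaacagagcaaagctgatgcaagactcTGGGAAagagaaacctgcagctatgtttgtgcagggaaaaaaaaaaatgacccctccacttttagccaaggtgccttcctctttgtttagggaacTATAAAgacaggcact
Cel (chr2:28563404-28563653, minus strand): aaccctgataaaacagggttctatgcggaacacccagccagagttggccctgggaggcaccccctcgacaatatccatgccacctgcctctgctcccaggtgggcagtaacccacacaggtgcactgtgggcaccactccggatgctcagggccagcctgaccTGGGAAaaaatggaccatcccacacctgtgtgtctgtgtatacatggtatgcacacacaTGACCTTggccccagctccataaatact
Pnlip (chr19:58670115-58670364, plus strand): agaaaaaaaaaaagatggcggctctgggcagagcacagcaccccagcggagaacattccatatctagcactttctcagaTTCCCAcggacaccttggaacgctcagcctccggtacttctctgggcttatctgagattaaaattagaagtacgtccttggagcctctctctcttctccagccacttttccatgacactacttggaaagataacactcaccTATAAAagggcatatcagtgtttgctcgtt
In the Prss2 window the RBPJ-type match, read on the reverse strand, lies 111 bases before the start site and the TATA match 16 bases before it. In Cel the RBPJ-type and NR5A2 matches, both on the reverse strand, lie 87 and 28 bases before it. The TATA match of Pnlip lies 30 bases before the start site, with the RBPJ-type match further upstream.

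Levels are log2 signals relative to the 75th percentile of each array, so 0 lies at that percentile and 1 unit is a doubling. All 13 colon epithelium markers, such as Krt20, Aqp8 and Cdx1, were well above background on at least 30 of the 31 arrays. On all arrays 65.8 to 77.8% of the probes were well above background. The array labelled CRC 14 days male 2 stood against its label, with a Xist level of -1.58 where the other 14 male arrays ranged from -8.51 to -6.51 and the female arrays from -2.33 to -0.69, and sexes are given as labelled. Colon epithelium markers gave a list score of -5.90 on CRC 7 days male 1, -2.28 on CRC 7 days male 2 and -1.45 on CRC + E171 14 days male 2, and of -0.11 to 1.01 on the other arrays. A list score is the median over the genes of a list after each gene's mean over the arrays is subtracted.

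By their mean, the acinar genes were abundant on 5 arrays and low on the other 26. Clps was not low on the 26 arrays (median 0.70), and Rnase1 was at -1.41 on CRC 2 days male 2. Their mean level over the 10 genes was 7.77 on CRC + E171 21 days female 2, 7.76 on CRC + E171 2 days female 2, 5.92 on CRC 7 days male 2 and 2.65 on CRC 2 days male 2, with CRC 7 days female 1 between the last pair. The sixth array was CRC 2 days female 2 with -2.14, and the others ranged from -3.44 down to -5.32. Both treatments, both sexes and 3 of the 4 time points are among the 5 arrays, and none of them is an array of 14 days. They lay on 4 of the 8 slides (slides 1, 5, 6 and 8) and were scanned on all 3 scan days. The same 5 arrays were the highest for each of the 10 genes. On CRC + E171 2 days female 2 the probes of the 10 genes took 0.932% of the whole array's signal, against 0.000212% on CRC + E171 14 days female 1. No probe of these genes was saturated on any array, and the brightest reached 80.7% of the saturation value. In such bulk samples, fewer acinar cells and less enzyme RNA per cell cannot be told apart.

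**Figure D1:**
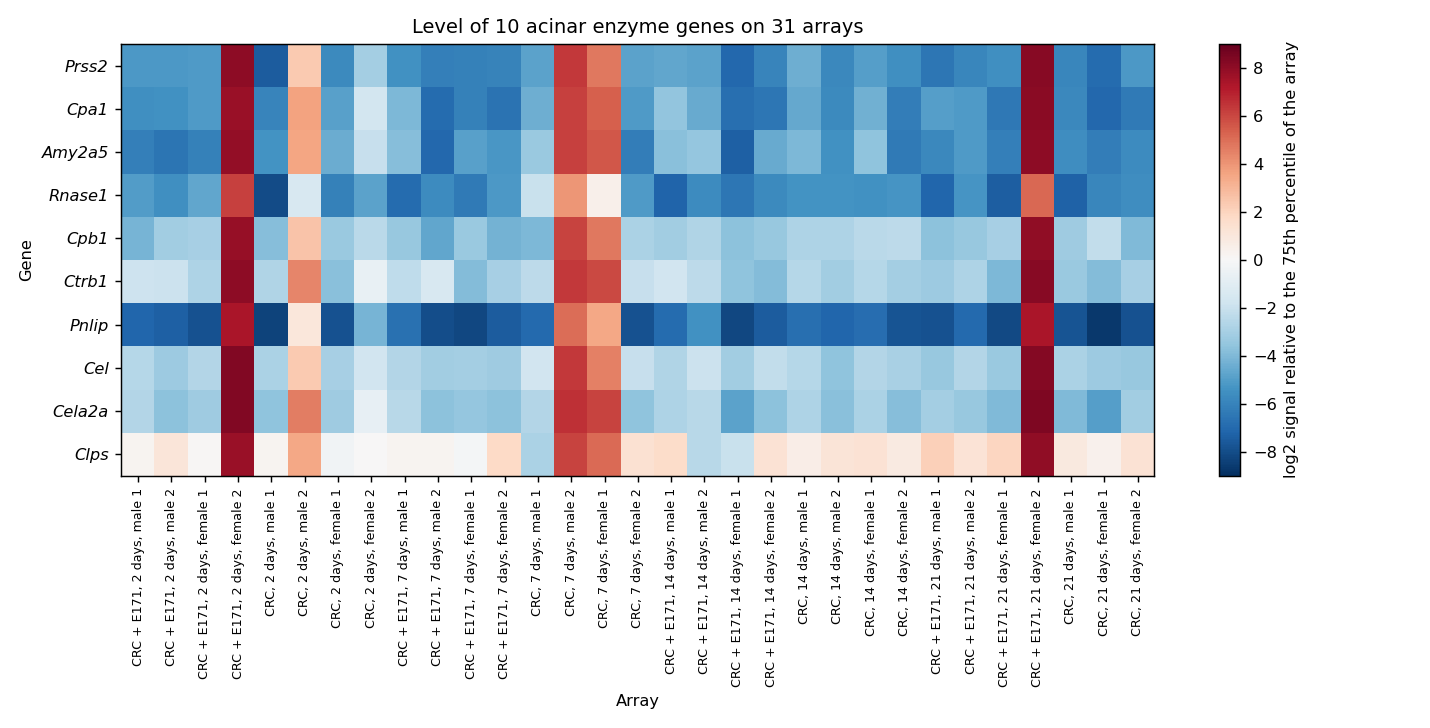
Log2 level, relative to the 75th percentile of each array, of the 10 acinar enzyme genes (rows) on the 31 arrays (columns, named by treatment, days of exposure and labelled sex). Red marks levels above the percentile and blue levels below it. The 5 mostly red columns are the 5 arrays with a mean level from 2.65 to 7.77. Levels are not comparable between rows, since each probe has its own response.

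Among the proteases, Prss2 codes for anionic trypsinogen. Its level was 8.16 on CRC + E171 21 days female 2, 8.06 on CRC + E171 2 days female 2, 6.36 on CRC 7 days male 2, 4.76 on CRC 7 days female 1 and 2.37 on CRC 2 days male 2. On the other 26 arrays it ranged from -7.46 to -3.07 with a median of -5.52, and the gap between the sets was 5.44. The probe was well above background on 24 of 31 arrays, so the lowest levels are near the limit of the array.

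Ctrb1 codes for chymotrypsinogen B, which cleaves after aromatic residues once trypsin has activated it. Its levels on the 5 arrays, in the same order, were 8.21, 8.06, 6.33, 5.95 and 4.40. The other 26 arrays ranged from -4.02 to -0.67 (median -2.79), all of them well above background. Cela2a codes for a pancreatic elastase and had levels of 8.43, 8.33, 6.57, 6.09 and 4.59. On the remaining arrays it ranged from -4.94 to -0.73 (median -3.44). The highest of the 26 arrays was CRC 2 days female 2 for both genes.

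The carboxypeptidases trim amino acids from the C-terminal end of peptides. For Cpa1, which prefers aromatic and aliphatic residues, the 5 levels were 8.10, 7.80, 6.16, 5.38 and 3.62, and those of the other arrays ran from -7.06 to -1.64 (median -5.46). For Cpb1, which prefers basic residues, they were 7.95, 7.86, 6.09, 4.76 and 2.57, with a range of -4.70 to -2.23 (median -3.25) elsewhere. CRC 2 days female 2 was the sixth array for Cpa1, and CRC 21 days female 1 was for Cpb1. Both genes thus had a gap, of 5.25 and 4.80, between the 5 arrays and the rest.

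Amy2a5 codes for pancreatic alpha-amylase, which digests starch. Averaged over its 2 probes, its level was 8.04, 7.92, 6.14, 5.56 and 3.52 on the 5 arrays. It ranged from -7.33 to -2.08 (median -5.41) on the others, and CRC 2 days female 2 was again the sixth array. This place rests on 1 probe, at -0.04 there. On the probe also listed for Amy1 the sixth array was CRC + E171 7 days female 2, at -3.30. Each probe was well above background on 22 of 31 arrays.

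Fat digestion is represented by Pnlip (pancreatic triglyceride lipase), Clps (colipase, the cofactor that anchors the lipase to bile-coated droplets) and Cel (bile salt-stimulated lipase, which also cleaves cholesterol esters). Averaged over its 2 probes, Pnlip had levels of 7.35, 7.35, 5.05, 3.45 and 1.01 on the 5 arrays. On CRC 2 days male 2 the probe with a RefSeq transcript was at 2.55 and the other at -0.53. On the other 26 arrays the average lay between -8.68 and -4.19 (median -7.65). The probe with a RefSeq transcript alone reached -2.92, on CRC + E171 14 days male 2. Each Pnlip probe was well above background on only 2 of the 26 arrays. This is why Pnlip failed the filter and was not in the fit with the filter. Cel was well above background on all 31 arrays, with levels of 8.28, 8.32, 6.37, 4.55 and 2.36 against -3.65 to -1.73 (median -2.85). Pnlip therefore went from near the limit of the array to well above its 75th percentile, and Cel from a low but measured level.

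Clps was well above background on all 31 arrays. Its level was 7.99, 7.77, 6.08, 5.07 and 3.50 on the 5 arrays, its median on the other 26 was 0.70 and its highest level there was 2.18, on CRC + E171 21 days male 1. The gap between the sets was 1.33, and the span over all arrays was 10.9. The lowest Clps levels were -2.88 on CRC 7 days male 1, -2.50 on CRC + E171 14 days male 2 and -2.00 on CRC + E171 14 days female 1, and the next was -0.35. The first and second of these arrays had colon epithelium scores of -5.90 and -1.45, while the third had 1.01 and the highest score for small intestine and Paneth cell markers, 3.28. The part of these differences in the Clps level was not tested.

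Rnase1, the secreted pancreatic ribonuclease, had its highest level, 6.12, on CRC + E171 2 days female 2. On the other 4 arrays it was 5.19 (CRC + E171 21 days female 2), 4.00 (CRC 7 days male 2), 0.48 (CRC 7 days female 1) and -1.41 (CRC 2 days male 2). The 26 remaining arrays ranged from -8.03 to -1.99 (median -5.63). The array at -1.99 was CRC 7 days male 1, and it stood only 0.58 below the lowest of the 5. The next array, CRC + E171 2 days female 1, was at -4.67.

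**Figure D2:**
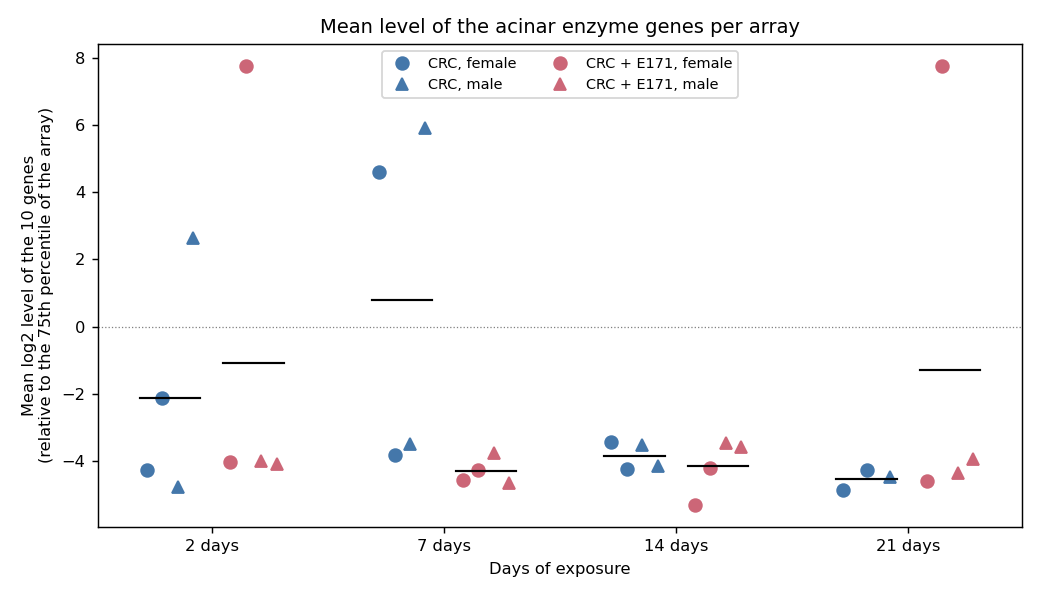
Mean log2 level of the 10 genes on each array (circles: labelled female, triangles: labelled male), by days of exposure and treatment, with a line at the group mean. In 4 of the 8 groups the group mean lies between arrays above 0 and arrays below it, since 1 or 2 arrays are high, and the groups of 14 days, CRC at 21 days and CRC + E171 at 7 days hold low arrays only.

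The spread within a group depended on whether it held one of the 5 arrays. The SD of the mean level over the 10 genes was 6.04 in CRC + E171 at 21 days, 5.90 in CRC + E171 at 2 days, 5.19 in CRC at 7 days and 3.39 in CRC at 2 days (n = 4 each). In the other groups it was 0.30 (CRC at 21 days, n = 3), 0.40 (CRC + E171 at 7 days, n = 4), 0.42 (CRC at 14 days, n = 4) and 0.84 (CRC + E171 at 14 days, n = 4). For Prss2 the mean was 0.38 ± 6.02 (SD, n = 4) in CRC and -5.93 ± 0.31 (SD, n = 4) in CRC + E171 at 7 days. At 21 days it was -5.98 ± 0.86 (SD, n = 3) and -2.43 ± 7.07 (SD, n = 4), respectively.

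The proportions among the 10 genes were alike on both arrays with the highest means and, outside Rnase1 and Pnlip, on CRC 7 days male 2. They changed on CRC 7 days female 1 and CRC 2 days male 2. Between the 2 arrays with the highest means 9 genes differed by -0.03 to 0.30. Rnase1 was 0.93 lower on CRC + E171 21 days female 2. CRC 7 days male 2 was lower than that array by 1.19 for Rnase1 to 2.30 for Pnlip, and the other 8 genes were lower by 1.80 (Prss2) to 1.94 (Cpa1). On CRC 7 days female 1 the step was 2.26 for Ctrb1, 2.35 for Cela2a and 2.48 for Amy2a5, but 3.73 for Cel, 3.90 for Pnlip and 4.71 for Rnase1. On CRC 2 days male 2 the step was 3.82 for Ctrb1 and 3.84 for Cela2a. It was 5.93 for Cel, 6.34 for Pnlip and 6.60 for Rnase1. Pnlip fell to 2.55 on the probe with a RefSeq transcript and to -0.53 on the other. The Amy2a5 probes fell to 1.85 and 5.20. On CRC 7 days female 1 the same probes were at 4.52 and 2.37 for Pnlip, and at 4.598 and 6.53 for Amy2a5. The place of Amy2a5 and Pnlip among the 10 genes thus depends on the probe on both arrays. Each array is 1 mouse, so these steps have no replicate.

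**Figure D3:**
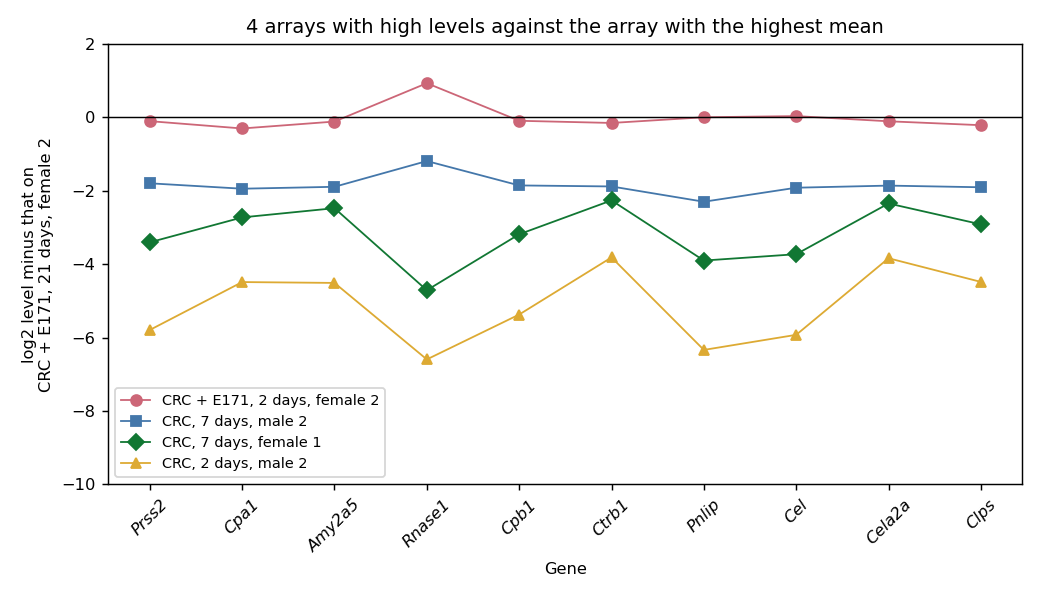
Difference in log2 level of each gene between CRC + E171 21 days female 2 (line at 0) and the 4 other arrays with high levels. The 2 upper profiles are nearly flat outside Rnase1 and Pnlip. The 2 lower ones fall further for Rnase1, Pnlip and Cel than for Ctrb1 and Cela2a. Amy2a5 and Pnlip are means of 2 probes that did not fall alike.

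Over the 31 arrays Pearson's r between 2 of the 10 genes ranged from 0.786 (Rnase1 and Clps) to 0.993 (Pnlip and Cela2a), with a median of 0.971 over the 45 pairs. These values rest on the separation of 5 arrays from 26. Over the 26 other arrays the median r was 0.35, 10 of the 45 pairs were below 0, and 3 pairs were over 0.8 (Cpa1 with Pnlip at 0.82, Pnlip with Cela2a at 0.85 and Cpa1 with Cela2a at 0.88). Clps had the lowest values there, down to -0.46 with Cel. All pairs share the array and its scaling, and several genes were near background on the 26 arrays.

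Apart from Amy1, the named genes most like the mean of the 10 over the 31 arrays were themselves products of acinar cells. Of 19835 other genes 17 had r over 0.9, 29 over 0.8 and 85 over 0.7. Among the 15 with the highest r were Cela3b (0.997), Ctrc (0.997), Pdia2 (0.983), Prss1 (0.978), Ctrl (0.977), Cela3a (0.973), Amy1 (0.967), Try5 (0.966), Reg1 (0.965), Prss3 (0.955), Try4 (0.949), Reg2 (0.943) and Pnliprp1 (0.927). They are trypsins, chymotrypsins, elastases, an amylase, a lipase-related protein, regenerating proteins and Pdia2, a pancreatic disulphide isomerase. The amylase, Amy1, is the salivary and liver type, and an Amy2a5 probe is also listed for its transcripts. The part of shared sequence in its r was not tested. Spearman's rho, which weighs the 26 low arrays more, was 0.83 for Cela3b and 0.49 for Prss1.

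Of the list of 30 other acinar products 26 were tested, 18 had r over 0.8 and 15 were higher on each of the 5 arrays than on any other. The list score was 1.95 to 8.43 on the 5 arrays and -2.06 to -0.24 on the rest. Beside the genes named above, those over 0.8 included Pnliprp2 (0.92), Aqp12 (0.87), Erp27 (0.85) and Pla2g1b (0.83), the last a secreted phospholipase. The list was drawn up with earlier results of these arrays known, so it gives no independent support. Its genes at or below 0.8 were Sycn, Zg16, Spink1, Klk1, Cela1, Dnase1, Gp2 and Cckar. The zymogen granule protein genes Sycn and Zg16 had median levels of 6.57 and 7.45 over the 31 arrays, and those of the trypsin inhibitor gene Spink1 and the kallikrein gene Klk1 were 6.42 and 5.84. These 4 were thus high on most arrays of the colon and had r from 0.07 to 0.20.

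Transcription factors of the acinar cell followed less closely. Rbpjl, the partner of PTF1A, had r = 0.86 and a level of 1.09 on CRC + E171 2 days female 2 against a median of -4.79, but only 3 of the 5 arrays were above all others. Ptf1a itself was below the filter, with r = 0.79 and a highest level of -0.18 on the same array. Bhlha15 had r = 0.71, and 4 of the 5 arrays were above the rest, while Nr5a2, also a gene of the gut epithelium, had r = 0.00. Of the 7 factors tested 1 had r over 0.8.

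No tested gene of the lists for pancreatic islets (10 genes tested), pancreatic ducts (8), small intestine and Paneth cells (11), stomach (8), salivary glands (8), liver (10), adipocytes (10), mesothelium (6), B cells and lymph node (9), colon epithelium (13) or smooth muscle (8) had r over 0.8 with the acinar mean. The islet score was -0.22 to 1.09 on the 5 arrays and -1.08 to 0.43 on the others. The insulin gene Ins1 was highest on CRC + E171 21 days female 2, at -1.31, where the highest of the 26 arrays was -4.89, and 2 of the 5 arrays were above the rest. Ins2, which did not pass the filter, was at -1.54 on that array. Glucagon (Gcg) and somatostatin (Sst), also made by enteroendocrine cells of the colon, had 0 of the 5 arrays above the rest.

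The duct score was -1.33 to 0.32 on the 5 arrays and -1.82 to 0.48 on the others. All 8 duct genes were well above background on all 31 arrays, so this score is not specific to duct tissue. The adipocyte score was 0.21 to 2.38 on the 5 arrays, all above 0, and -2.86 to 2.24 on the others. Liver (-0.96 to 0.50 against -1.27 to 3.32) and small intestine (-0.64 to 0.57 against -1.10 to 3.28) were within the range of the other arrays, and so were salivary glands (-0.25 to 0.64 against -0.49 to 0.93) and stomach (-0.39 to 0.45 against -0.42 to 0.57). In the stomach list Tff2, a trefoil factor of gastric and other mucous cells that failed the filter, had r = 0.96 and reached 5.54 on CRC + E171 2 days female 2. The scores on the 5 arrays were -0.81 to 1.90 for mesothelium (-1.41 to 1.69 on the others), -1.42 to 1.80 for B cells and lymph node (-3.10 to 2.37), -2.28 to 0.66 for colon epithelium (-5.90 to 1.01) and -0.81 to 0.02 for smooth muscle (-0.85 to 1.29). What part RNA of other tissues had in the acinar levels was not tested.

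**Figure D4:**
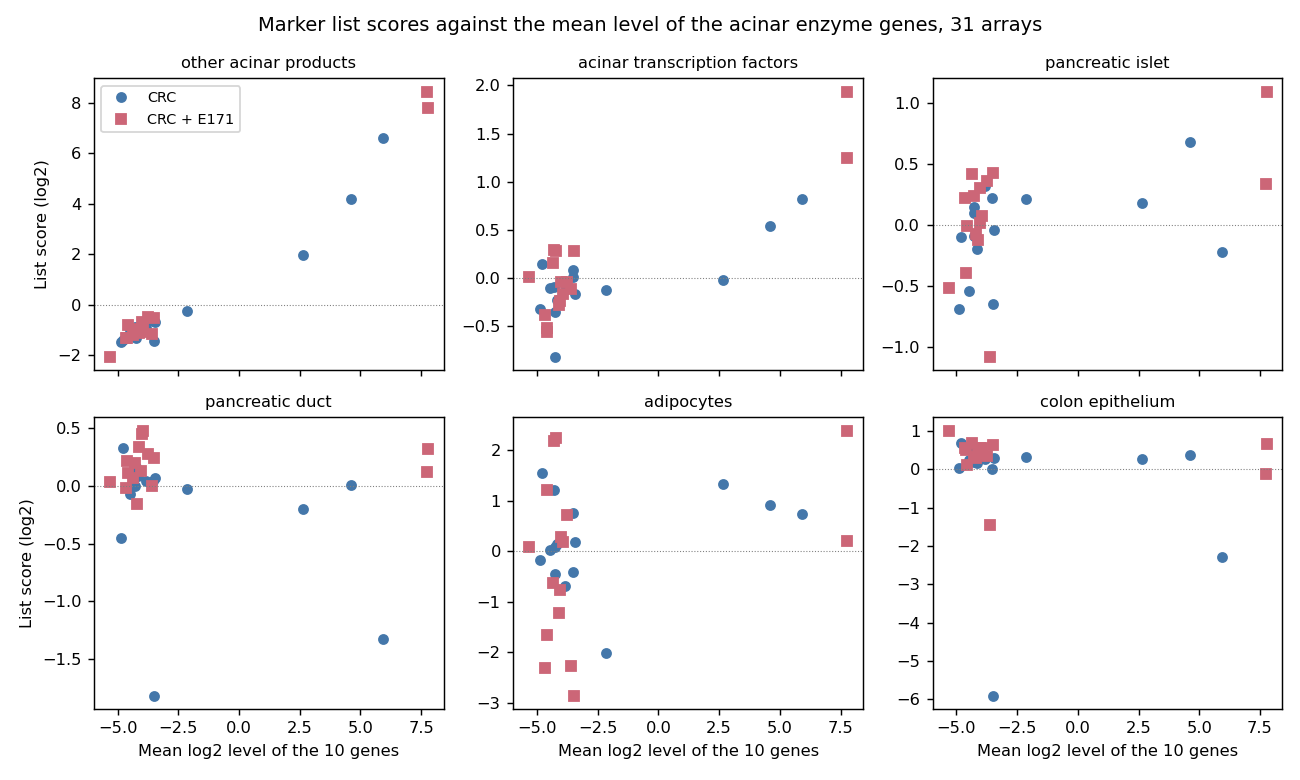
List score (log2, vertical) of 6 marker lists against the mean log2 level of the 10 genes (horizontal) on 31 arrays (circles: CRC, squares: CRC + E171). The score of other acinar products rises from 1.95 to 8.43 over the 5 arrays with high levels, that of acinar transcription factors to 1.94, and the islet, duct, adipocyte and colon epithelium scores of these arrays lie mostly within the range of the others.

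The main question of the study is which genes respond to E171, so the 9 genes that passed the filter were compared between CRC + E171 and CRC at each time point. A single limma model over the 8 groups was used, and a DEG had a linear fold change of at least 1.5 and an unadjusted p under 0.05. After 2 days of exposure 0 of 9 genes were DEG, where 1.77% of all 19844 genes were. The median log2 fold change of the 9 genes was 1.14, against 0.06 for all genes, and 8 were higher with E171. The median was -1.68 without CRC + E171 female 2, 2.48 without CRC male 2 and -1.76 with array weights. Rnase1 had the largest fold change, 2.81 (SE 2.33, adjusted p = 0.9999 from limma), which was 0.015 without CRC + E171 female 2 and 0.12 with array weights. Without the 5 arrays with high levels the median was -0.23 and that of Rnase1 1.24, while Amy2a5 passed the thresholds at -2.29 (SE 1.01, adjusted p = 0.978 from limma), as did 3.54% of all genes in that setting. That setting was chosen after the data had been seen.

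After 7 days 4 of 9 genes were DEG, all of them down-regulated, where 12.4% of all genes were DEG and 5.53% were down-regulated DEG. After adjustment over all genes limma called 0 of the 9 (adjusted p from 0.255 to 0.603), and 0 of all 19844 genes. The median log2 fold change was -4.93, with all 9 genes lower with E171, against -0.01 for all genes. With single arrays left out the median ranged from -6.67 (without CRC female 2) to -3.27 (without CRC male 2). The same arrays gave the ends of the range for Prss2 (-8.04 to -4.32), Cpa1 (-8.29 to -4.54), Rnase1 (-6.87 to -3.84) and Cel (-6.08 to -3.26). All CRC arrays were above all CRC + E171 arrays for 3 of the 9 genes (Prss2, Rnase1 and Cel), as they were for 2.02% of the 19824 genes with a value on all 8 arrays.

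Markers of other cell types moved in the same comparison. Of the 13 colon epithelium markers 12 were up-regulated DEG (median log2 fold change 2.46), and of the 8 duct markers 4 were (Krt19, Sox9, Cftr and Slc4a4), with a median of 0.98. Without CRC male 1 these counts were 5 of 13 (median 1.11) and 1 of 8 (median 0.36), with 4.67% of all genes DEG, and without CRC male 2 they were 8 of 13 and 3 of 8 (8.79%). Without CRC female 1 (20.1%) or female 2 (18.2%) they were 13 of 13 (medians 3.45 and 2.997) and 5 of 8, with 1 duct marker down-regulated. Without the 5 arrays with high levels (18.6%) they were 13 of 13 (median 3.22) and 3 of 8. Krt19, Sox9, Cftr and Slc4a4 were well above background on all 31 arrays. The median level of Krt19, 7.01, was above that of the colon epithelium marker Krt20, 6.18. The duct calls are therefore not specific to duct tissue. The part of the colon epithelium and duct shifts in the acinar fold changes was not tested.

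Prss2 at 7 days was -4.80 (male 1), 6.36 (male 2), 4.76 (female 1) and -4.80 (female 2) in CRC, and -5.47, -6.15, -6.09 and -6.02 in CRC + E171. Both low CRC arrays were still above the CRC + E171 arrays, but by far less than the other pair. The fold change was -6.32 (SE 2.99, adjusted p = 0.288 from limma). Cpa1 at 7 days was -4.42, 6.16, 5.38 and -5.10 in CRC and -4.05, -6.90, -6.10 and -6.62 in CRC + E171, in the same order. Its fold change was -6.42 (SE 2.99, adjusted p = 0.284 from limma), and 1 CRC + E171 array was above both low CRC arrays.

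Rnase1 at 7 days was -1.99, 4.00, 0.48 and -5.11 in CRC and -6.94, -5.69, -6.38 and -5.17 in CRC + E171. Its fold change, -5.39 (SE 2.33, adjusted p = 0.255 from limma), had the smallest adjusted p of the 9 genes. Here each CRC array was above all CRC + E171 arrays, female 2 only narrowly. Cel at 7 days was -1.73, 6.37, 4.55 and -2.09 in CRC and -2.65, -3.15, -3.08 and -3.20 in CRC + E171, so its groups did not overlap either. Its fold change was -4.79 (SE 2.31, adjusted p = 0.296 from limma).

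The calls at 7 days depended on single arrays, and 0 of 9 genes passed with normexp background correction, where 10.6% of all genes did. With each array left out in turn the count went from 0 to 9. It was 0 without CRC male 2 (8.79% of all genes), CRC female 1 (20.1%) or CRC + E171 female 1 (10.8%) of 7 days. It was 1 without any other CRC + E171 array of 7 days (9.62 to 12.2% of all genes), and 9 without CRC male 1, the array with the colon epithelium score of -5.90 (4.67%). It was 8 without CRC female 2 of 7 days (18.2%), and also 8 without CRC + E171 female 2 of 2 days (12.4%) or of 21 days (12.6%), whose arrays are not in the comparison but set the spread. Without the 5 arrays with high levels, 2 CRC arrays were left and 2 of 9 genes were DEG, a share near the 18.6% of all genes. They were Rnase1 at -2.49 (SE 0.83, adjusted p = 0.111 from limma) and Cel at -1.11 (SE 0.38, adjusted p = 0.117), with a median of -0.51. Prss2 (-1.14, SE 0.80) and Cpa1 (-1.16, SE 1.01) did not pass then.

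At 14 days, where no array was high, 0 of 9 genes were DEG (6.35% of all genes). The median log2 fold change was -0.16, and the fold change of Clps, -1.35 (SE 1.70, adjusted p = 0.889 from limma), was the largest. The median was -0.57 without CRC + E171 male 1 and 0.17 without CRC + E171 female 1, and Clps ranged from -2.02 (without CRC + E171 male 1) to -0.65 (without CRC + E171 male 2). Clps was 0.61, 1.16, 1.28 and 0.78 in CRC, and 1.62, -2.50, -2.00 and 1.30 in CRC + E171 (males 1 and 2, females 1 and 2). At 21 days 0 of 9 genes were DEG (2.68% of all genes), although all 9 were higher with E171, with a median of 2.93. Cpa1 had the largest fold change, 4.32 (SE 3.23, adjusted p = 0.911 from limma). Its levels were -5.83 (male 1), -7.06 (female 1) and -6.38 (female 2) in CRC and -4.96, -5.11, -6.44 and 8.10 in CRC + E171 (males 1 and 2, females 1 and 2), so 1 array held the difference. Without the arrays with high levels the fold change of Cpa1 was 0.92 and the median of the 9 genes 0.05.

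Pnlip was outside the fit with the filter, and its differences are bounds, since 1 of the groups was near background on all its arrays. After 7 days 2 of 4 CRC arrays and 0 of 4 CRC + E171 arrays had Pnlip well above background, and CRC was at least 26.8-fold higher. This bound fell to 5.78-fold without CRC male 2 and to 8.37-fold without CRC female 1, and it was 93.7-fold and 113-fold without male 1 and female 2. At 21 days it was measured on 1 of 4 CRC + E171 arrays and 0 of 3 CRC arrays, and CRC + E171 was at least 5.92-fold higher. There was no bound above 1 without CRC + E171 female 2, and it was 12.1 to 15.7-fold without any other array of that group. When the filter was left out, limma gave Pnlip an adjusted p of 0.415 at 7 days and 0.804 at 21 days, so neither difference passed. The bound takes the brighter group's mean over all its arrays, and for each array of the dim group the higher of its own signal and the lowest signal well above background.

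**Figure D5:**
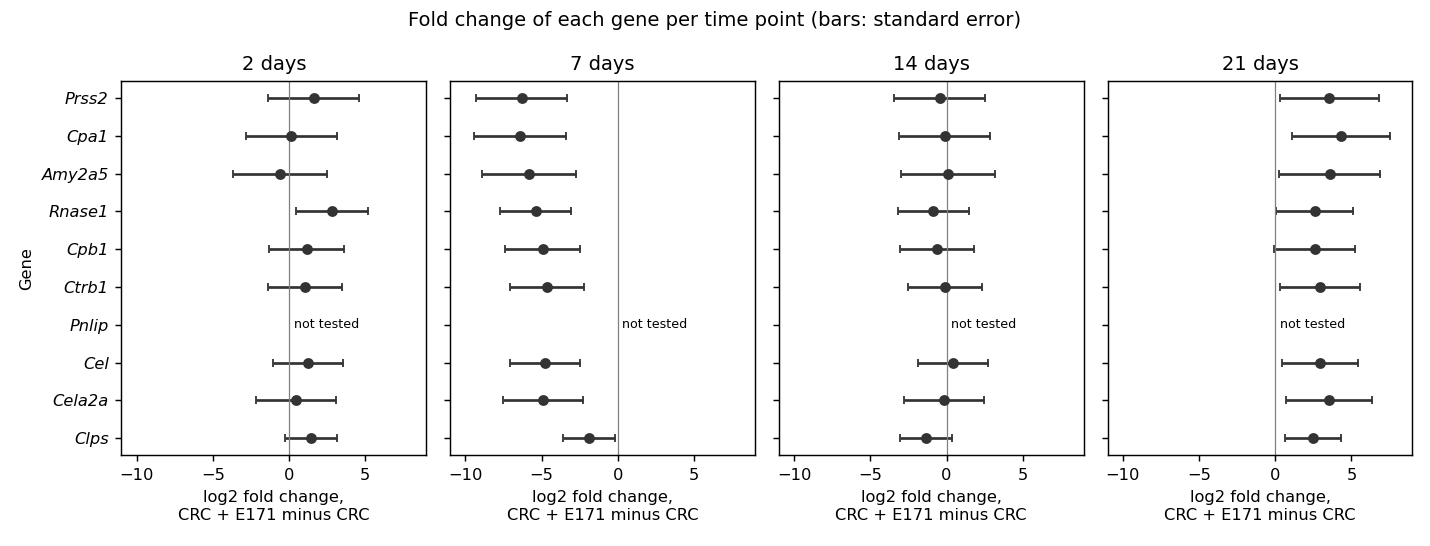
Log2 fold change of each gene, CRC + E171 minus CRC, at 2, 7, 14 and 21 days, with bars of 1 standard error from the limma model. All 9 tested genes are below 0 at 7 days and above 0 at 21 days, with standard errors of 1.70 to 3.33, and Pnlip was not in the fit with the filter.

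Averaged over the 4 time points, 0 of 9 genes were DEG (1.79% of all genes). The mean log2 fold change was -0.40 for Prss2, -0.52 for Cpa1, -0.69 for Amy2a5, -0.22 for Rnase1, -0.46 for Cpb1, -0.18 for Ctrb1, -0.05 for Cel, -0.28 for Cela2a and 0.17 for Clps, with adjusted p from 0.892 to 0.991 in limma. Their standard errors were 0.87 to 1.57. With array weights the means were lower, from -2.17 (Amy2a5) to -0.64 (Clps), again with 0 DEG. No slide held both treatments of the same day, but the arrays of 7 and 21 days shared slides across treatments, as did those of 2 and 14 days. All CRC arrays lay in column 2 of their slide and all CRC + E171 arrays in column 4. Treatment and position on the slide therefore cannot be told apart, also within slides. Within slides 0 of 9 genes were DEG for 7 and 21 days (2.37% of all genes) and 0 of 9 for 2 and 14 days (3.04% of all genes). In both cases the count became 1 without 1 array, with Rnase1 passing without CRC + E171 21 days female 2 (2.37% of all genes) and Amy2a5 passing without CRC + E171 2 days female 2 (4.81%).

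The standard errors of these 9 genes at 7 days ranged from 1.70 to 3.08, where the median over all genes was 0.31. Between days 0 of 9 genes differed at an adjusted p under 0.05 in limma (0.0957% of all genes), and 0 had an unadjusted p under 0.05 (14.5% of all genes). Between labelled sexes 0 of 9 differed (0.0554% of all genes), also with 0 at an unadjusted p under 0.05 (8.84% of all genes). For 0 of 9 genes did the E171 effect differ between days (0% of all genes, with an adjusted p of 0.719 to 0.739 for the 9 genes), and 0 passed unadjusted (6.55% of all genes).

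Of the 26 other acinar products tested, 0 were DEG at 2 and 21 days (1.77 and 2.68% of all genes), 2 at 7 days (12.4%) and 1 at 14 days (6.35%). At 7 days Try5, a trypsin, was down-regulated (-6.84, SE 3.19, adjusted p = 0.284 from limma) and Zg16, which is made by goblet cells of the colon too, was up-regulated (2.35, SE 1.07, adjusted p = 0.275). At 14 days Spink1 was down-regulated (-3.29, SE 1.29, adjusted p = 0.556). The median log2 fold change of this list was 1.01, -3.28, -0.16 and 2.08 at 2, 7, 14 and 21 days. Of the 7 transcription factors 1 was a DEG at 7 days, Nr5a2 (up-regulated, where 12.4% of all genes were DEG), and 0 genes of either list passed after adjustment.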

How the data were processed

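The arrays were Agilent SurePrint one-colour arrays of 31 mice. The authors scanned them and extracted the spots with Feature Extraction 10.7.3.1, and the deposited signal is a background-subtracted intensity per spot, not normalized between arrays. The authors also deposited a log2 value table, made after flag and mean filters, imputation and a normalization that is not given in the sources used here, and it served as an alternative. All 31 of its columns matched their own array best (Spearman's rho from 0.994), its column medians were 9.43 to 9.67, its direction was that of the array signals, and its centring stays unknown.

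Outlier spots were left out, and each intensity was divided by the 75th percentile of its array (1698 to 6485) before log2 was taken. A probe was kept where, in at least 1 group, 60% of the arrays had it well above background with a mean log2 signal of 4 or more (42787 of 56605 probes). Genes were named through RefSeq accessions, symbols and synonyms, and probes of a gene were averaged, which gave 19844 genes. R 4.3.3 with limma 3.58.1 fitted 1 model over the 8 groups with moderated variances, and p-values were adjusted over all genes (Benjamini-Hochberg). The threshold was a fold change of 1.5 with an unadjusted p under 0.05. The fit was tested on simulated data. P-values measure only the spread between these samples, and the precision is limited by how few arrays a group has.

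The genes, lists, named genes, motifs and tests were chosen with earlier results of these data known. The named genes are all 10, with the fold change of each over the 4 days, of the DEG of a day or otherwise of the largest change, and the 15 genes of highest r, without Gm names. A gene and a probe sequence that this rule would show are not reported here. The alternatives were quantile normalization, normexp (offset 50), the authors' values, no and a stricter filter, the highest probe, a replicate block, slide as a random block, array weights, a log2 fold change of 1.5 and leaving out each array. Leaving out the 5 arrays with high levels, and single arrays for the marker lists at 7 days and for the bounds of Pnlip, was added after the data had been seen.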

Additional observations from a re-analysis of the deposited data

Results flagged for a closer look

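In 22 of 70 pairs of a gene and a group of 4 arrays, 1 array was far from the others by Dixon's ratio, the gap to the nearest array divided by the range of the group. The genes were selected on the spread over these arrays, so the ratios describe that spread and are no test of it. All 10 genes had CRC + E171 21 days female 2 as such an array, with ratios of 0.93 (Prss2), 0.90 (Cpa1), 0.93 (Amy2a5), 0.83 (Rnase1), 0.94 (Cpb1), 0.90 (Ctrb1), 0.93 (Pnlip), 0.93 (Cel), 0.93 (Cela2a) and 0.86 (Clps). All 10 also had CRC + E171 2 days female 2, with 0.99 (Prss2), 0.97 (Cpa1), 0.97 (Amy2a5), 0.93 (Rnase1), 0.90 (Cpb1), 0.92 (Ctrb1), 0.96 (Pnlip), 0.94 (Cel), 0.91 (Cela2a) and 0.87 (Clps).

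For Clps CRC 2 days male 2 was far above the rest of its group (0.85), and for Cela2a CRC + E171 7 days male 1 was (0.85), at a level of -2.47. CRC at 7 days held 2 high arrays, so neither stood alone there, and CRC at 21 days, with 3 arrays, was left out.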

How the results depend on the processing

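At 7 days the count of DEG among the 9 genes, 4, was 0 with normexp background correction (10.6% of all genes), 7 with array weights (3.48%) and 2 without the 5 arrays with high levels (18.6%), and the median log2 fold change without them was -0.51. With quantile normalization and with the authors' values it was 6, where 2575 and 2435 genes passed in all. With single arrays left out it ranged from 0 to 9. At 2 days the count of 0 became 1 without the 5 arrays with high levels (3.54% of all genes). The counts within slides ranged from 0 to 1 with single arrays left out, both for 7 and 21 days and for 2 and 14 days. The other counts of 0 held under each alternative run. The cause was not tested.

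The Rnase1 log2 fold change, mean of 4 days (0.19), and the Cel log2 fold change, mean of 4 days (0.054), were reversed with normexp. The Clps log2 fold change, mean of 4 days, was reversed with quantile normalization (-0.00155) and array weights (-0.64). Array weights moved the other means to -2.04 (Prss2), -2.08 (Cpa1), -2.17 (Amy2a5), -1.12 (Rnase1), -1.69 (Cpb1), -1.51 (Ctrb1), -1.18 (Cel) and -1.56 (Cela2a). The median at 2 days was -1.76 with array weights and -1.68 to 2.48 with single arrays left out, that at 7 days was -6.67 to -3.27 and that at 14 days -0.57 to 0.17 with single arrays left out, and that at 21 days was 0.76 with array weights and 0.05 to 4.11. With single arrays left out, reversals occurred in the ranges of -1.28 to 0.10 (Prss2), -0.96 to 0.17 (Rnase1), -0.91 to 0.24 (Ctrb1), -0.76 to 0.33 (Cel), -1.02 to 0.16 (Cela2a) and -0.29 to 0.48 (Clps). Samples of the same sex and replicate number did not deviate together in all pairs (8 of 15 pairs with r over 0.1, range -0.18 to 0.48). These values cannot tell whether the numbers pair mice, and the main fit used no pairing. With the replicate block the counts were 4 at 7 days (12.9% of all genes) and 0 at 2, 14 and 21 days (3.45%, 7.67% and 4.24%). Levels not well above background limit Pnlip, and the low arrays of Prss2, Cpa1, Amy2a5 and Rnase1.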
